A study of Mus musculus with 12 samples.

Results

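The angiotensinogen, collectrin and angiotensin pathway genes described here are 6 genes of the 19938 measured: Agt, Cltrn, Ace, Agtr1a, Agtr2 and Hnf4a. They were taken by symbol from the array annotation, and each had exactly 1 probe set with a single symbol, so the probe sets, to be chosen by the highest mean signal over 12 arrays, needed no choice. The cells were MIN6, a mouse insulinoma line that secretes insulin and stands in for beta cells, and RNA from 12 cultures was hybridised to Affymetrix arrays. CC stands for classic conditions, medium with serum at 20% oxygen, and DC for serum-free medium at 5% oxygen. All cultures were grown in medium with 15% serum beforehand, and all received siRNA at 2 µM with a transfection reagent, either against Hes3, a repressor of the Hes family of transcription factors, or a scrambled control sequence. In CC there were 2 arrays labelled Hes3 siRNA and 2 with scrambled siRNA, and in DC 4 of each. Cells were assayed 12 to 24 hours after transfection. The labels describe a single experiment, so p-values measure only the spread between these samples, which may be technical. Serum and oxygen differ together between CC and DC, so their contributions cannot be told apart. MIN6 is 1 tumour line of beta-cell origin and holds no liver or kidney cells, the usual sources of most of these transcripts in the animal.

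Angiotensinogen, a secreted protein of the serpin fold, is the precursor of all angiotensin peptides. Renin cuts off its end to give angiotensin I, and angiotensin-converting enzyme, encoded by Ace, trims that peptide to angiotensin II. Angiotensin II acts on 2 receptors, the type 1 receptor (Agtr1a in the mouse), which raises blood pressure and aldosterone, and the type 2 receptor (Agtr2), which often opposes it. Collectrin, encoded by Cltrn and formerly called Tmem27, resembles the membrane-anchoring part of an angiotensin-converting enzyme relative but has no peptidase domain. It sits in the membrane of kidney tubule and beta cells, where it is needed for amino acid transport in the kidney and has been studied in insulin secretion and beta-cell growth, and the protease Bace2 sheds it from beta cells. Hnf4a is a nuclear receptor that drives many liver and beta-cell genes, and angiotensinogen is among its known liver targets.

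The sequences just upstream of Agt and Cltrn are shown because these are the members whose signal differed between the culture conditions. They are the 250 bases before the annotated start, from RefSeq on build GRCm38.p6, and 5 of the 6 members matched this table by symbol, Agtr1a being the exception. The Agt window lies at chr8:124569707-124569956 on the minus strand, and the window of the first of 2 Cltrn starts at chrX:164089937-164090186 on the plus strand. Capitals mark matches, on either strand, to the letters searched.
Agt: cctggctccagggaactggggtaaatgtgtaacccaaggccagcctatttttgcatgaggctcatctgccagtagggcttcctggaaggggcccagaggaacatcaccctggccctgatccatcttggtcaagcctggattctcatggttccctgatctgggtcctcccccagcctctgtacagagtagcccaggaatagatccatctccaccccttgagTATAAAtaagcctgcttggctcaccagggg
Cltrn: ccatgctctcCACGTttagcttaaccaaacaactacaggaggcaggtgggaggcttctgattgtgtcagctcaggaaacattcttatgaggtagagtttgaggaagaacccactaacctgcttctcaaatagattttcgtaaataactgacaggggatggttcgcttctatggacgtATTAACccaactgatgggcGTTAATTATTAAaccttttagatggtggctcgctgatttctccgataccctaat
Letters of 7 motifs were searched on both strands in these windows and in 32851 promoter windows of the same length. The TATA box, searched as TATAAA, was the only match in the Agt window, 30 bases before the start, and 12.4% of all windows hold it. The binding letters of homeodomain factors of liver and beta cells were searched as GTTAAT, found in 6.43% of windows. The Cltrn window held them on both strands, with first bases 73 and 54 before the start. The match at 54 was also part of the full palindrome-like site of these factors, in which the same letters are followed, after any 1 base, by ATTAA. That longer site was found in 20 windows, 0.0609% of the total. The core of the hypoxia response element, ACGTG, was in 16.6% of windows and lay 240 bases before the Cltrn start on the minus strand, so that the line printed shows its complement. The core read by HNF4 factors, searched as AAAGTCC, was in 3.58% of windows and matched neither sequence. The same held for the FOXA letters TGTTTAC, in 3.17% of windows, and for the glucocorticoid receptor letters TGTTCT, in 16.1%. Among the other starts, the first of Ace had the HNF4 letters 104 bases before it and the TATA box letters 31 bases before it, both on the minus strand. The second Cltrn start had 2 matches to the glucocorticoid receptor letters and no other, and the second Hnf4a start had 2 matches to the homeodomain letters, 81 and 74 bases before it. A match is a description of the letters, and no binding was measured.

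Values are on the log2 scale as deposited, a scale read from their range, since no label states it. Probe sets differ in brightness for the same amount of RNA, so no gene's level is set against another's. Changes were tested with limma, with adjusted p under 0.05 as the threshold. Hes3 itself was not lower on the arrays that carry its label. Its signal was 7.22 and 7.23 there against 6.82 and 7.23 with scrambled siRNA in CC, and 7.25 to 7.38 against 7.10 to 7.24 in DC. The difference was 0.20 ± 0.109 (SE) in CC (adjusted p = 1) and 0.15 ± 0.0767 in DC (adjusted p = 0.114), so these are called arrays labelled Hes3 siRNA. The 4 DC arrays labelled Hes3 siRNA stood apart in their spread, with an SD over probe sets of 1.76 to 1.80 against 1.82 to 1.90 on the other 8. Of 10 beta-cell markers, 8 lay above the median signal of all genes, Slc2a2 and Ucn3 being the exceptions. So did 3 of 3 measured alpha-cell markers and 3 of 5 for delta, PP and epsilon cells. Of 9 measured hepatocyte markers, 2 did, and of 8 kidney proximal tubule markers, 1. Since brightness differs between probe sets, these positions are a description, and they do not single out beta cells.

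Agt, the hormone precursor, was far lower in DC than in CC. With scrambled siRNA its signal was 11.81 and 11.95 in CC, and 9.73, 9.86, 9.80 and 9.87 in DC. On arrays labelled Hes3 siRNA it was 11.97 and 11.88 in CC, and 9.70, 9.89, 10.54 and 10.73 in DC. All 8 DC arrays lay below all 4 CC arrays, and 2 of the 4 DC arrays labelled Hes3 siRNA lay higher than the remaining 6. Agt fell by 2.07 ± 0.20 (SE, n = 2 and 4) with scrambled siRNA, 4.19-fold lower in DC, with an adjusted p of 1.08e-05 and a 95% interval of -2.49 to -1.64. Among arrays labelled Hes3 siRNA it fell by 1.71 ± 0.20, 3.28-fold lower, with an adjusted p of 2.35e-05 and an interval of -2.14 to -1.29. In order of fold change it was the 2nd lowest of all 19938 genes with scrambled siRNA, between Id2 (-2.13) and Dusp6 (-1.84), and the 11th lowest on arrays labelled Hes3 siRNA.

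Cltrn, the membrane protein collectrin, was also far lower in DC. With scrambled siRNA its signal was 9.65 and 10.13 in CC, and 8.31, 7.94, 8.24 and 8.28 in DC. For cultures labelled Hes3 siRNA, it was 9.93 and 9.91 in CC, and 7.48, 7.66, 7.92 and 7.94 in DC. Every DC array lay below every CC array, by more than the widest gap between replicates, which was that of the CC scrambled arrays. Cltrn fell by 1.70 ± 0.144 (SE, n = 2 and 4) with scrambled siRNA, 3.25-fold lower, with an adjusted p of 3.11e-06 and a 95% interval of -2.01 to -1.40. Among arrays labelled Hes3 siRNA it fell by 2.17 ± 0.144, 4.50-fold lower, with an adjusted p of 2.87e-07 and an interval of -2.47 to -1.86. It was the 5th and the 4th lowest of all genes in these comparisons.

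Genes called lower by at least 2-fold were rare with scrambled siRNA, 42 genes or 0.211% of those tested, and Agt and Cltrn were among them. Among arrays labelled Hes3 siRNA there were 162, or 0.813%, again with both. In total 8.54% of genes were called with scrambled siRNA, 3.09% higher and 5.45% lower, and 40.1% on arrays labelled Hes3 siRNA, 21.2% higher and 18.8% lower. These totals rest on few CC arrays: the 1702 genes called with scrambled siRNA became 742 without CC scrambled array 2, and the 7986 called on arrays labelled Hes3 siRNA became 3410 and 2357 without CC array 1 or 2 of that label. The members were proposed with earlier results of these data known, so their calls are not independent evidence. In bulk RNA, fewer cells that make a transcript and less of it per cell cannot be told apart. The calls for Agt and Cltrn held under each alternative processing and with each array left out in turn.

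**Figure D1:**
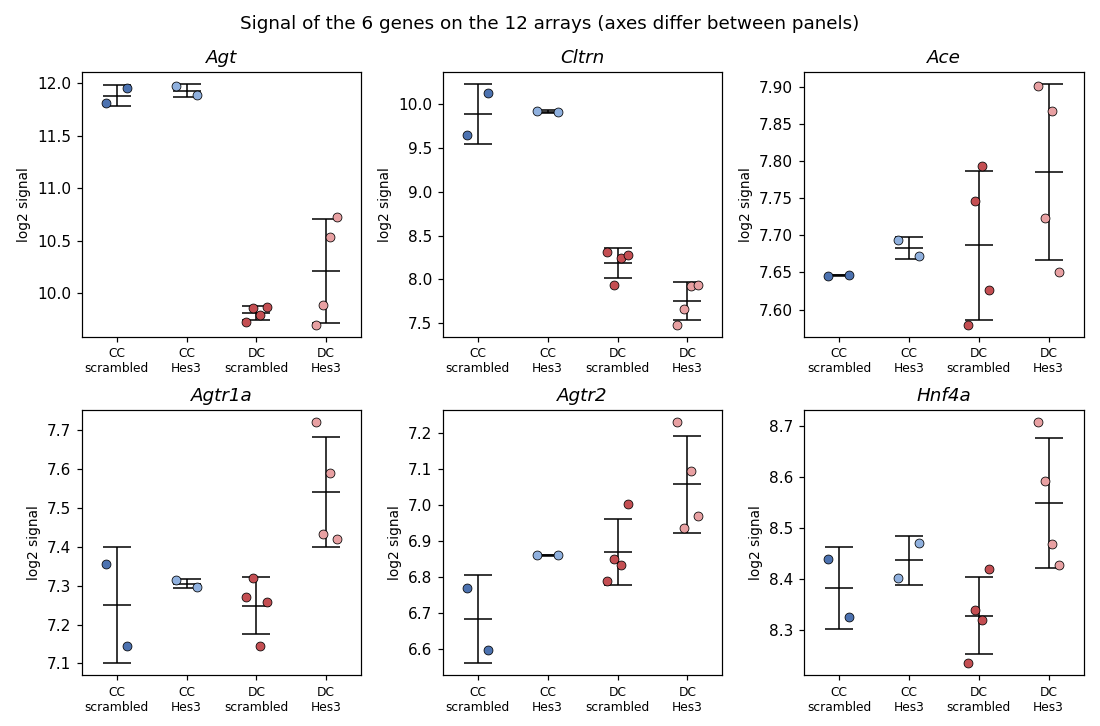
Signal (log2, y axis) of each of the 6 genes on all 12 arrays by group (x axis), with points for arrays and bars for the group mean and SD. Agt and Cltrn drop from CC to DC with either siRNA, and the other 4 genes stay within narrow ranges such as 7.58 to 7.90 for Ace.

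The enzyme, the receptors and the nuclear receptor did not share that drop. Ace, which makes angiotensin II, had 7.65 on both CC arrays with scrambled siRNA and 7.58, 7.75, 7.79 and 7.63 in DC. The DC values lay on both sides of the CC ones. Its difference was 0.04 ± 0.0844 (SE, adjusted p = 0.871), with a 95% interval of -0.14 to 0.22. With Hes3 siRNA labels, Ace had 7.69 and 7.67 in CC and 7.90, 7.72, 7.87 and 7.65 in DC, which overlapped. The difference was 0.10 ± 0.0844 (adjusted p = 0.320), with an interval of -0.08 to 0.28, and its sign turned under 3 of the scalings tried.

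Agtr1a, the type 1 receptor, had 7.36 and 7.14 with scrambled siRNA in CC, and 7.27, 7.32, 7.15 and 7.26 in DC. The DC arrays lay between the CC arrays, and the difference was -0.0014 ± 0.0917 (SE, adjusted p = 0.996), with an interval of -0.20 to 0.19. In the arrays of the Hes3 label, it had 7.31 and 7.30 in CC and 7.72, 7.43, 7.59 and 7.42 in DC. These did not overlap, and the difference of 0.24 ± 0.0917 missed the threshold (adjusted p = 0.0514). Agtr2, the type 2 receptor, had 6.77 and 6.596 in CC and 6.79, 6.85, 6.83 and 7.00 in DC with scrambled siRNA. The groups did not overlap by a narrow margin, and the difference of 0.19 ± 0.0906 was not called (adjusted p = 0.277). On arrays labelled Hes3 siRNA, Agtr2 had 6.86 on both CC arrays and 7.23, 6.93, 7.09 and 6.97 in DC. All DC arrays were higher, by 0.20 ± 0.0906 on average (adjusted p = 0.0899).

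Hnf4a, the transcription factor, had 8.44 and 8.33 in CC with scrambled siRNA, and 8.24, 8.34, 8.32 and 8.42 in DC. The groups overlapped, and the difference was -0.05 ± 0.0849 (SE, adjusted p = 0.819), with an interval of -0.23 to 0.13. With Hes3 siRNA labels, it had 8.40 and 8.47 in CC and 8.71, 8.59, 8.47 and 8.43 in DC. These overlapped too, at 0.11 ± 0.0849 (adjusted p = 0.281). Arrays did not overlap between CC and DC for 3 of the 6 members with scrambled siRNA, where 27.9% of all genes did not, and for 4 of 6 on arrays labelled Hes3 siRNA, where 61.8% did not.

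The wider pathway was read from 3 lists: angiotensin precursors and peptidases, angiotensin receptors and their partners, and collectrin proteases and partners. Of their genes 45 were measured, among them the members other than Hnf4a, and the rest were not analysed here. With scrambled siRNA 6 of the 45 (13.3%) were called, 1 higher and 5 lower in DC, beside 8.54% of all genes, with a median log2 fold change of -0.0062 beside 0.02 over all genes. The 5 that fell were Agt, Cltrn, Prcp, Ece1 and Slc3a1, and each remained called lower under all 4 scalings. In the arrays of the Hes3 label, 20 (44.4%) were called, 7 higher and 13 lower, a share near that of all genes. Of these, 7 were lower under all 4 scalings (Agt, Cltrn, Prcp, Ece1, Rnpep, Enpep and Gabarapl1), and 0 were higher under all 4.

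Among the 18 measured precursors and peptidases, 3 fell and 0 rose with scrambled siRNA, beside 5.45% and 3.09% of all genes. Prcp, a carboxypeptidase that removes the last residue of angiotensin II, fell by 0.53 ± 0.102 (SE, adjusted p = 0.00347). For cultures labelled Hes3 siRNA, Prcp fell by 1.01 ± 0.102 (adjusted p = 6.32e-06). Ece1, the endothelin-converting enzyme, fell by 0.35 ± 0.0869 (adjusted p = 0.0166) and by 0.53 ± 0.0869 (adjusted p = 0.000444). Agt, Prcp, Ece1 and Cltrn were the genes of the 45 called lower in both comparisons. These compare different arrays but share an estimate of each gene's spread, so they are not independent. The share of all genes called lower in both was not computed. On arrays labelled Hes3 siRNA 2 of the 18 rose and 6 fell, where 40.1% of all genes were called, 21.2% higher and 18.8% lower. Rnpep, aminopeptidase B, fell by 0.53 ± 0.114 (adjusted p = 0.0032), with -0.16 ± 0.114 with scrambled siRNA (adjusted p = 0.518). Enpep, the aminopeptidase A that turns angiotensin II into angiotensin III, fell by 0.37 ± 0.120 (adjusted p = 0.0248), against -0.06 with scrambled siRNA. The 2 that rose were Anpep, aminopeptidase N, by 0.27 ± 0.0981 (adjusted p = 0.0389), and the endopeptidase Nln, neurolysin, by 0.23 ± 0.0771 (adjusted p = 0.0314).

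Of the 14 measured receptors and partners, 0 were called with scrambled siRNA, beside 8.54% of all genes. The 2 with the smallest p were Gnaq, at -0.16 (adjusted p = 0.29), and Agtr2. In the arrays of the Hes3 label, 2 rose and 5 fell, 7 of 14 beside 40.1% of all genes. Those that fell included Gabarapl1, a relative of the receptor-trafficking protein Gabarap, by 0.69 ± 0.159 (SE, adjusted p = 0.00466). The Gq-family subunits Gna11 and Gnaq, through which the type 1 receptor signals, fell by 0.38 ± 0.0923 (adjusted p = 0.00609) and by 0.32 ± 0.0795 (adjusted p = 0.007). Arrb1, a beta-arrestin that binds the active receptor, fell by 0.34 ± 0.0982 (adjusted p = 0.0145). The 2 that rose were Mrgprd, a receptor for the peptide alamandine, by 0.27 ± 0.0988 (adjusted p = 0.0416), and Arap1, by 0.24 ± 0.0803 (adjusted p = 0.0277).

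Among the 13 measured collectrin proteases and partners, Cltrn and Slc3a1 fell with scrambled siRNA and Snapin rose, beside 8.54% of all genes called. Slc3a1, the rBAT subunit of the cystine transporter, fell by 0.49 ± 0.112 (SE, adjusted p = 0.0113), against -0.20 ± 0.112 on arrays labelled Hes3 siRNA (adjusted p = 0.159). Snapin, a partner of the SNARE complex, rose by 0.26 ± 0.0767 (adjusted p = 0.0423). Bace2, the sheddase of collectrin, was at -0.20 ± 0.0746 with scrambled siRNA (adjusted p = 0.136) and fell by 0.39 ± 0.0746 on arrays labelled Hes3 siRNA (adjusted p = 0.00145). There 3 of the 13 rose and 2 fell, beside 21.2% and 18.8% of all genes. The neutral amino acid transporters Slc6a18 and Slc6a20a rose by 0.41 ± 0.106 (adjusted p = 0.00859) and 0.34 ± 0.102 (adjusted p = 0.0188). Slc7a9, which pairs with Slc3a1, rose by 0.21 ± 0.0743 (adjusted p = 0.0347).

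**Figure D2:**
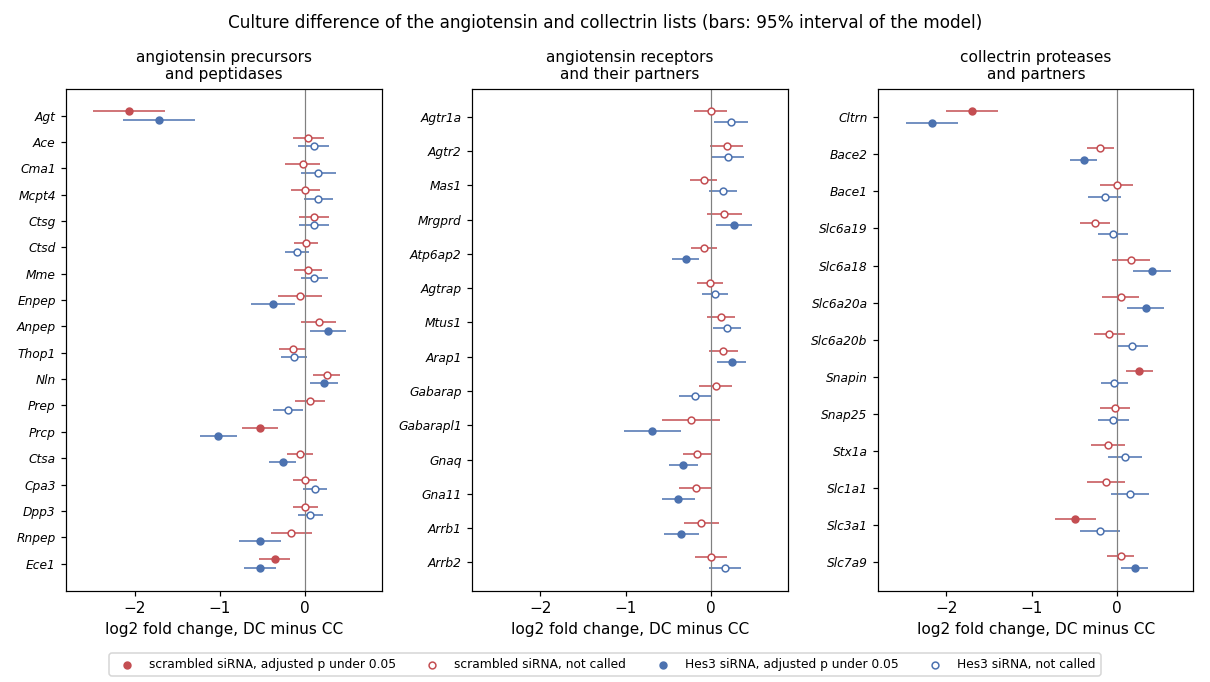
Log2 fold change of DC against CC (x axis) for the 45 measured genes of the 3 lists (y axis), with 95% intervals, red for scrambled siRNA and blue for arrays labelled Hes3 siRNA, and filled points for adjusted p under 0.05. Agt and Cltrn lie far to the left of all other genes, whose scrambled values run from -0.53 for Prcp to 0.26 for Snapin.

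Hnf4a belongs to a network of liver and islet transcription factors, and 18 of its genes were measured. With scrambled siRNA 0 were called, beside 8.54% of all genes, with a median of 0.03. The 2 with the smallest p were the coactivator Ppargc1a, at 0.43 ± 0.135 (SE, adjusted p = 0.0652), and the homeodomain factor Onecut2, at 0.23 ± 0.0881 (adjusted p = 0.132). For cultures labelled Hes3 siRNA, 6 rose and 1 fell, 7 of 18 beside 40.1% of all genes. Those that rose most were Foxa3 by 0.35 ± 0.101 (adjusted p = 0.0146), Nr2f2 by 0.33 ± 0.0848 (adjusted p = 0.00927), Onecut1 by 0.26 ± 0.0876 (adjusted p = 0.0299) and Onecut2 by 0.26 ± 0.0881 (adjusted p = 0.0324). Pcbd1, a dimerization cofactor, fell by 0.37 ± 0.107 (adjusted p = 0.0146). None of these 7 calls held under all 4 scalings. Of 17 measured targets of these factors, 2 fell and 0 rose with scrambled siRNA, beside 5.45% and 3.09% of all genes. The 2 were Cltrn, and the thyroxine carrier Ttr by 0.81 ± 0.143 (adjusted p = 0.00172). Agt, named above as a liver target of Hnf4a, is not on this list and is not counted here. With Hes3 siRNA labels, 5 of the 17 rose and 4 fell, beside 21.2% and 18.8% of all genes. Igfbp1, an insulin-like growth factor binding protein, rose by 0.38 ± 0.0928 (adjusted p = 0.00686) and the lipoprotein gene Apoc3 by 0.34 ± 0.0812 (adjusted p = 0.006). Ttr fell by 0.69 ± 0.143 (adjusted p = 0.00236), beside Cltrn. Under all 4 scalings the calls of Cltrn, Ttr, Igfbp1 and Ugt2b34, a glucuronosyltransferase that rose by 0.34 ± 0.0850 (adjusted p = 0.0073), held.

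Of 15 measured transcription factors known at the angiotensinogen promoter, 2 rose and 0 fell with scrambled siRNA, beside 3.09% and 5.45% of all genes. Esr1, the estrogen receptor, rose by 0.55 ± 0.132 (SE, adjusted p = 0.0144), and again by 0.55 ± 0.132 on arrays labelled Hes3 siRNA (adjusted p = 0.0058). Nfix, a nuclear factor I protein, rose by 0.33 ± 0.0735 (adjusted p = 0.00928), against 0.10 on arrays labelled Hes3 siRNA (adjusted p = 0.247). Stat3, which carries the acute-phase signal, fell on the latter by 0.27 ± 0.0876 (adjusted p = 0.0242). Nr3c1, the glucocorticoid receptor, was called in neither, at 0.23 (adjusted p = 0.24) and -0.09 (adjusted p = 0.472).

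Agt was set beside its serpin relatives, of which 15 were measured, Agt included. With scrambled siRNA 2 fell, beside 5.45% of all genes: Agt, and Serping1, the C1 inhibitor, by 1.02 ± 0.205 (SE, adjusted p = 0.0045). The median of the 15 was 0.05. On arrays labelled Hes3 siRNA 3 of the 15 fell and 4 rose, beside 18.8% and 21.2% of all genes. Serping1 fell by 1.06 ± 0.205 (adjusted p = 0.00145) and the neuronal serpin Serpini1 by 0.91 ± 0.119 (adjusted p = 6.58e-05). The largest of the 4 rises was that of Serpind1, heparin cofactor II, by 0.41 ± 0.113 (adjusted p = 0.0127), and of the 7 calls the 3 that fell held under all 4 scalings.

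Of 3 measured alpha-cell markers, Gcg and Ttr fell with scrambled siRNA, where 8.54% of all genes were called. Gcg fell by 0.93 ± 0.116 (SE, adjusted p = 0.000112), and Irx2 was at 0.01. For cultures labelled Hes3 siRNA, Gcg fell by 1.05 ± 0.116 (adjusted p = 1.5e-05) and Irx2 rose by 0.28 ± 0.0794 (adjusted p = 0.0152). The summed linear signal of the 3 was 14939 to 16189 on CC and 8460 to 9079 on DC arrays with scrambled siRNA, and 15122 to 15185 and 7997 to 10139 on arrays labelled Hes3 siRNA. Ttr is also 1 of the 9 measured hepatocyte markers, and it was the only one called with scrambled siRNA, where the list's median was 0.04. On arrays labelled Hes3 siRNA it fell and 3 others rose, where 18.8% of all genes were called lower and 21.2% higher. These 9 markers summed to 9875 to 10346 on CC and 5947 to 6731 on DC arrays with scrambled siRNA. On arrays labelled Hes3 siRNA the sums were 9503 to 9562 and 5445 to 7714. Linear sums weigh bright genes most, and Ttr had a mean log2 signal of 13.16 in CC and 12.35 in DC with scrambled siRNA. The hepatocyte sums therefore mostly follow Ttr and do not show a fall of these markers as a set. The alpha-cell sums include Ttr too. The part of these markers in the lower Agt and Cltrn signal was not tested. The 10 beta-cell markers summed to 42405 to 44199 in CC and 43636 to 46528 in DC with scrambled siRNA, and of these Slc30a8, the zinc transporter of insulin granules, and Nkx6-1 rose. On arrays labelled Hes3 siRNA the 10 summed lower in DC, to 38834 to 42721, against 43275 to 43385 in CC. There Slc30a8 and Ucn3 rose, and Neurod1 (-0.44) and G6pc2 (-0.20) fell, beside 40.1% of all genes called. Between the siRNA groups in DC, 2 of the 10 rose and 4 fell on arrays labelled Hes3 siRNA, beside 47.2% called. In the lists for delta, PP and epsilon cells, kidney proximal tubule, fibroblasts and pericytes, endothelium, macrophages, acinar cells and duct cells, Cd68 was the only gene called with scrambled siRNA, and it fell by 0.44 ± 0.0988 (adjusted p = 0.00919).

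The genes whose profiles lay nearest to Agt and Cltrn were found by the root mean square difference over the 12 arrays, after subtracting each gene's mean. The nearest to Agt were Ccdc80, a secreted matrix protein (0.23), Cckbr, the gastrin receptor (0.29), Igf1r, the receptor of insulin-like growth factor 1 (0.31), the transcription inhibitor Id1 (0.31) and Gucy2c, a guanylate cyclase receptor (0.31). The nearest to Cltrn were Tacr3, the neurokinin B receptor (0.25), Dusp6, a phosphatase of ERK kinases (0.25), Csn3, kappa-casein (0.25), Tcim (0.28) and Cckbr (0.28), which was on both sets. These 9 genes all were called lower in DC with either siRNA, as the choice by likeness implies. Ccdc80 was at -1.62 with scrambled siRNA and -1.64 on arrays labelled Hes3 siRNA, and Tacr3 at -1.65 and -2.39. Between Agt and Cltrn themselves the means of the siRNA groups in DC lay in opposite order, Agt at 0.40 and Cltrn at -0.44. The Agt difference was not called, and the arrays of the siRNA groups overlapped for each of these genes.

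**Figure D3:**
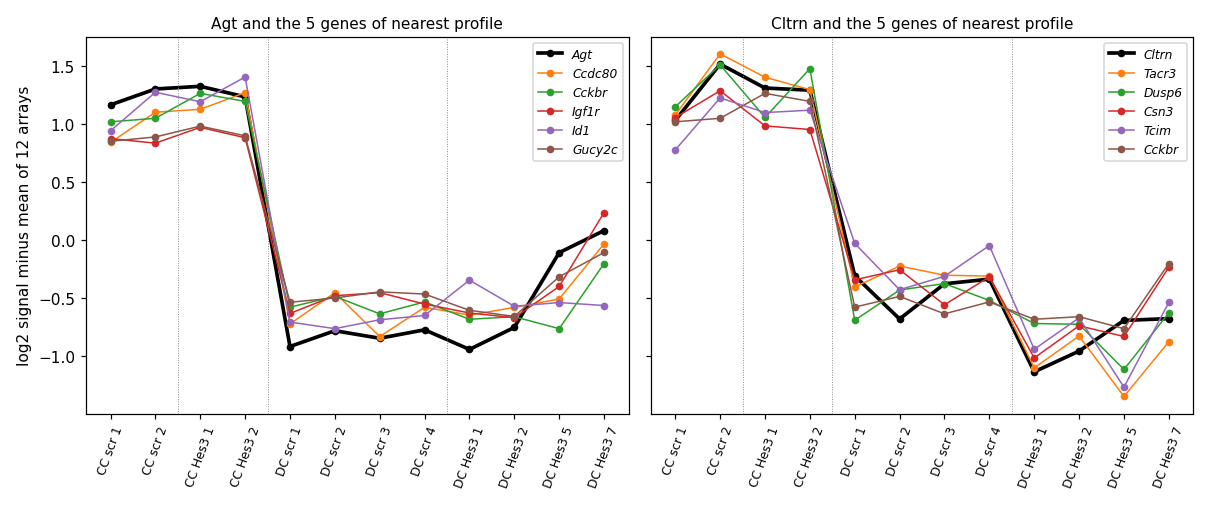
Centred signal (log2 minus the gene's mean, y axis) on each of the 12 arrays (x axis) for Agt and Cltrn, each with the 5 genes of nearest profile. All lines drop from the 4 CC arrays to the 8 DC arrays, and Agt lies above most of its neighbours on DC arrays 5 and 7 labelled Hes3 siRNA, at 10.54 and 10.73 before centring.

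The other members called in any comparison had nearer neighbours. The 5 genes nearest to Agtr1a were Rhbdl3, Atp2b3, Slc4a9, Adgrb1 and H2-Q2, at 0.034 to 0.036. Those nearest to Agtr2 were Ppp1r3g, Barhl2, Aknaos, Drd1 and Sdhaf4, at 0.040 to 0.046. Those nearest to Hnf4a were Hormad2, Gpr183, Mgat4d, Prss16 and Foxj1, at 0.040 to 0.045. These sets moved less over the 12 arrays than Agt and Cltrn, but were not flat: in DC the 5 neighbours of Agtr1a were all called higher on arrays labelled Hes3 siRNA, from 0.27 for Atp2b3 to 0.31 for H2-Q2.

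In gene order along chromosome 8, the 3 measured genes on each side of Agt did not share its drop with scrambled siRNA: their values ran from -0.22 (Ttc13) to 0.12 (2310022B05Rik) and 0 of 6 were called. With Hes3 siRNA labels, Ttc13 fell by 0.60 ± 0.0810 (SE, adjusted p = 8.51e-05) and Galnt2, a glycosyltransferase, by 0.33 ± 0.0778 (adjusted p = 0.00509). Around Cltrn on the X chromosome 1 of 6 was called with scrambled siRNA, beside 8.54% of all genes. This was Pir, which fell by 0.38 ± 0.102 (adjusted p = 0.0266). In the arrays of the Hes3 label, all 6 were called, in both directions, beside 40.1% of all genes. Ap1s2 (-0.91), Car5b (-0.73), Pir (-0.70) and Siah1b (-0.44) fell, and Bmx (0.22) and Vegfd (0.24) rose.

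**Figure D4:**
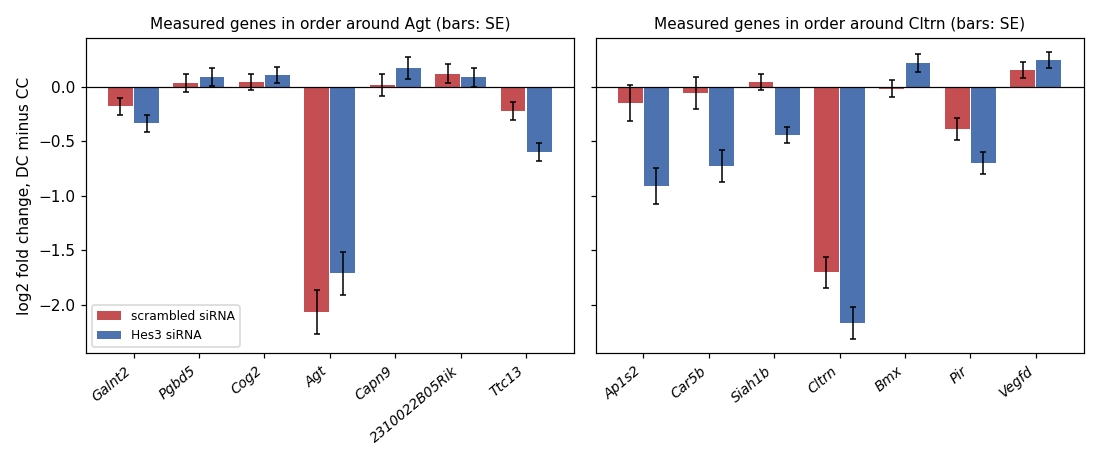
Log2 fold change of DC against CC (y axis, bars with SE) for the 3 measured protein genes on each side of Agt and of Cltrn in gene order (x axis), red for scrambled siRNA and blue for arrays labelled Hes3 siRNA. Agt at -2.07 and -1.71 and Cltrn at -1.70 and -2.17 lie below every neighbour, the lowest of which is Ap1s2 at -0.91.

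In CC the arrays labelled Hes3 siRNA and those with scrambled siRNA gave 0 called genes (0% of 19938), with 415 genes at an unadjusted p under 0.05 by limma. All 6 members had an adjusted p of 1. The differences were 0.05 ± 0.231 (SE, n = 2 and 2) for Agt, with a 95% interval of -0.45 to 0.54, and 0.03 ± 0.166 for Cltrn, with an interval of -0.33 to 0.38. Ace was at 0.04 ± 0.0974, Agtr1a at 0.05 ± 0.106, Agtr2 at 0.18 ± 0.105 and Hnf4a at 0.05 ± 0.0981. The arrays did not overlap for Ace and Agtr2, 2 of 6, beside 26.9% of all genes.

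In DC the same comparison called 47.2% of all genes, 28.9% higher and 18.3% lower on arrays labelled Hes3 siRNA. Those 9408 genes became 6064 and 5881 without DC array 1 or 5 labelled Hes3 siRNA, and 5754 without scrambled array 1. Of the 6 members, 3 were called higher and 1 lower, a count to be read against that share. Genes of different brightness shifted differently: among genes within 0.25 of a member's mean signal, the median change was 0.21 for Ace and for Agtr1a, 0.20 for Agtr2, 0.03 for Hnf4a, -0.02 for Cltrn and -0.15 for Agt. Cltrn fell by 0.44 ± 0.117 (SE, n = 4 and 4), 1.36-fold lower (adjusted p = 0.00995). Its values, given above, overlapped, since the lowest scrambled array (7.94) and the highest labelled Hes3 siRNA (7.94) met. Leaving out the DC arrays numbered 1 and 5 labelled Hes3 siRNA gave -0.39 for Cltrn (adjusted p = 0.0892), 0.18 for Agtr1a (adjusted p = 0.137), 0.18 for Hnf4a (adjusted p = 0.134) and 0.08 for Agtr2 (adjusted p = 0.459), with 0 of the members called. Agt was 0.40 ± 0.164 higher and missed the threshold (adjusted p = 0.0548). Its arrays 1 and 2 labelled Hes3 siRNA, 9.70 and 9.89, lay at the scrambled level, and arrays 5 and 7, 10.54 and 10.73, lay above it. Agt was called at 0.53 after quantile normalization (adjusted p = 0.0244) and at 0.57 (adjusted p = 0.014) when DC array 1 of the Hes3 label was left out, and was at 0.23 without array 7.

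Agtr1a rose by 0.29 ± 0.0748 (SE, adjusted p = 0.0086), and its groups did not overlap, with 7.42 to 7.72 against 7.15 to 7.32. Genes of like signal had a median of 0.21, and 64.6% of them were called. After cyclic loess scaling Agtr1a was at 0.12 and no longer called. Hnf4a rose by 0.22 ± 0.0694 (adjusted p = 0.02), from 8.24 to 8.42 on scrambled arrays to 8.43 to 8.71, which nearly touched. Its call was lost after median centring (0.15, adjusted p = 0.0858) and cyclic loess scaling (0.17, adjusted p = 0.0645). It was also lost when array 1 of either siRNA was left out, at 0.17 for the one labelled Hes3 siRNA (adjusted p = 0.063) and 0.19 for the scrambled one (adjusted p = 0.0668). Agtr2 rose by 0.19 ± 0.0739 (adjusted p = 0.048), beside a median of 0.20 over genes of like signal, with overlapping arrays, and lost its call under most alternatives. Ace was at 0.10 ± 0.0689 (adjusted p = 0.235), with overlapping arrays. Groups did not overlap for 2 of the 6 members, Agtr1a and Hnf4a, beside 40.9% of all genes.

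Of the 45 genes of the 3 lists, 22 were called in DC, 12 higher and 10 lower, which at 48.9% is near the share of all genes. Without DC arrays 1 and 5 labelled Hes3 siRNA 0 of the 45 were called, and 331 of all genes. The calls of 4 held under all 4 scalings: Cltrn, Prcp and Rnpep lower, and Slc1a1 higher. Prcp fell by 0.44 ± 0.0831 (SE, adjusted p = 0.00326) and Rnpep by 0.50 ± 0.0934 (adjusted p = 0.00322). Slc1a1, a glutamate and cysteine transporter, rose by 0.37 ± 0.0850 (adjusted p = 0.00591). In the receptor list Atp6ap2, the renin receptor, fell by 0.21 ± 0.0597 (adjusted p = 0.014) and Gabarapl1 by 0.33 ± 0.129 (adjusted p = 0.0472), among 3 that fell and 5 that rose. In the Hnf4a network 9 of 18 rose and 1 fell, and of the targets 11 of 17 rose and 1, Cltrn, fell. Over all genes 47.2% were called and 28.9% were higher. These shares do not allow for brightness, and dimmer genes shifted upwards in this comparison. The rises that held under all 4 scalings were 0 in the network and 2 among the targets, Apoc3 and Igfbp1. Pcbd1 was the member of the network that fell, by 0.39 ± 0.0871 (adjusted p = 0.00514). Of the factors at the angiotensinogen promoter, Nr3c1 fell by 0.36 ± 0.0874 (adjusted p = 0.00732), Nfix by 0.32 ± 0.0600 (adjusted p = 0.00322) and Thra, a thyroid hormone receptor, by 0.26 ± 0.0704 (adjusted p = 0.0114), and Hnf4a rose. Of the serpins 4 rose and 2 fell, the latter being Serpini1, by 0.62 ± 0.0974 (adjusted p = 0.00217), and the acute-phase serpin Serpina3n, by 0.41 ± 0.0897 (adjusted p = 0.00494). Markers of cell types foreign to the line rose as well, 5 of 5 for acinar cells and 5 of 8 for kidney proximal tubule. For fibroblasts and pericytes 6 of 9 rose, for endothelium 3 of 7 and for macrophages 4 of 6. For hepatocytes 3 of 9 rose and for duct cells 3 of 4, with 0 that fell in any of these lists. Over all genes 28.9% were higher, but that share does not allow for brightness. In each list but that of duct cells, most genes lay below the median signal of all genes. Among genes of like signal to Agtr1a and Agtr2, the median was 0.21 and 0.20, and 64.6% and 60.9% were called. Whether the markers rose more than genes of like signal was not tested. Fewer of the marker calls held under all 4 scalings: 1 of 5 for acinar cells, 1 of 5 for kidney, 3 of 6 for fibroblasts and pericytes, 1 of 3 for endothelium, 0 of 4 for macrophages, 0 of 3 for hepatocytes and 2 of 3 for duct cells. Their part in the higher Agtr1a, Agtr2 and Hnf4a signal was not tested.

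**Figure D5:**
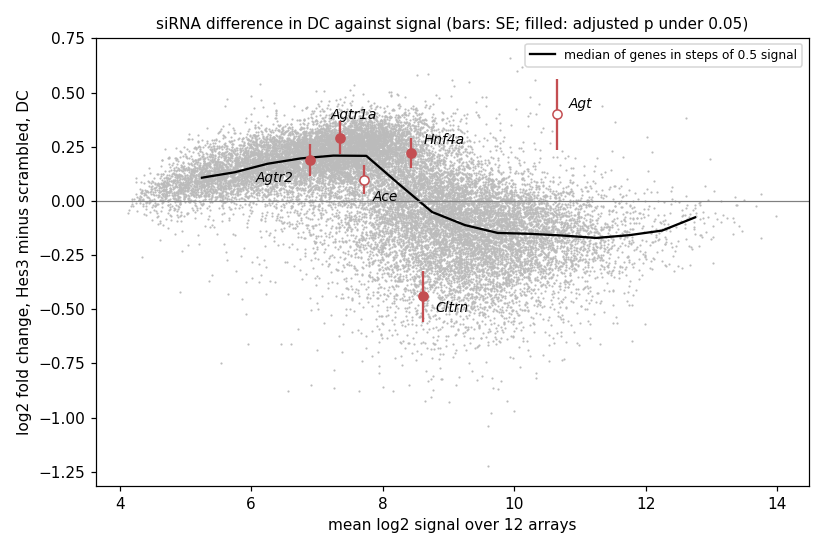
Log2 fold change in DC, arrays labelled Hes3 siRNA against scrambled (y axis), against mean log2 signal (x axis), with grey points for all genes, a black line for their median in steps of signal, and red points with SE for the 6 genes, filled where adjusted p is under 0.05. Agtr1a and Agtr2 lie near the median line, Ace below it, Agt (0.40) and Hnf4a above it, and Cltrn (-0.44) below it.

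The difference between the siRNA comparisons in DC and in CC was tested as an interaction, and 0 genes were called (0%), with 3471 at an unadjusted p under 0.05 by limma. It was 0.35 ± 0.283 (SE) for Agt (adjusted p = 0.487) and -0.47 ± 0.203 for Cltrn (adjusted p = 0.265), with a 95% interval of -0.90 to -0.04. Without CC scrambled array 2 the Cltrn difference was -0.71 and passed (adjusted p = 0.0386), and 2056 genes were called. Without CC scrambled array 1 it was -0.22 (adjusted p = 0.936). Agtr1a was at 0.24 ± 0.130 (adjusted p = 0.340), Hnf4a at 0.17 ± 0.120 (adjusted p = 0.446), Ace at 0.06 ± 0.119 (adjusted p = 0.774) and Agtr2 at 0.01 ± 0.128 (adjusted p = 0.969).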

How the data were processed

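The 12 arrays were of the whole-transcript type, hybridised with biotin-labelled cDNA from 250 ng of total RNA each, per the labels' protocols. The values deposited by the authors are 1 per probe set and array, for 35556 probe sets, and were taken as log2 because they run from 3.94 to 14.4. The authors' normalization was not given in the sources used here. Scanner files were not used here. The number of arrays limits the precision, since no count or depth stands behind a value.

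The array annotation gave 1 gene symbol to 21789 probe sets, several to 1621 and none to 12146. Only the first kind was used, with the highest mean over the 12 arrays deciding where a gene had several, which left 19938 genes and no filter on low values. Groups came from the sample titles. limma 3.58.1 in R 4.3.3 fitted 1 mean per group over all 12 arrays, with 8 residual and 7.62 prior degrees of freedom, for 5 contrasts. Tests were two-sided, and p-values were adjusted over all genes by the Benjamini-Hochberg method within each contrast, with a threshold of 0.05. The fit was tested on simulated data. The labels give no batch, date or slide.

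The named genes are the 6 members in each contrast, then from each list those past the threshold, up to 4 by size in each direction, or the 2 with the smallest p where none passed, and the 5 genes nearest in profile to each member called. Measured genes next to Agt and Cltrn were added. The lists held 186 genes, of which 162 were measured. The members and lists were chosen with earlier results of these data known. Promoter sequences came from RefSeq, build GRCm38.p6, and protein sequences were not used here. Alternatives were other scalings (quantile, median, cyclic loess), a filter on dim genes, other probe-set rules, array weights, a replicate block, a minimum fold of 1.5 and leaving out arrays.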

Additional observations from a re-analysis of the deposited data

Results flagged for a closer look

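In groups of 4 arrays, a value was singled out where its gap to the nearest other array, divided by the group's range, passed Dixon's limit at the 95% level. This was tested for 70 pairs of gene and DC group, and 4 passed, where chance gives about 1 in 20. None was a value of the 6 members. The peptidase gene Prep was 10.4 on DC scrambled array 2, with the others at 10.3. The receptor gene Mrgprd was 7.35 on the same array, next to 7.24. Gabarapl1 was 9.81 on DC scrambled array 3, next to 9.93. Slc3a1 was 8.14 on DC array 5 labelled Hes3 siRNA, next to 7.74.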

How the results depend on the processing

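The lower Agt and Cltrn signal in DC kept its direction and call, with either siRNA, under all 12 alternatives (-2.10 to -2.03 with scrambled siRNA and -2.13 to -1.53 on arrays labelled Hes3 siRNA for Agt, -1.77 to -1.64 and -2.35 to -2.12 for Cltrn). The same held with each array left out (-2.13 to -1.997 and -1.88 to -1.54 for Agt, -1.94 to -1.46 and -2.23 to -2.08 for Cltrn). In DC, the Agt siRNA difference passed the threshold after quantile (0.53) or cyclic loess (0.54) normalization and with array weights (0.40), was 0.0018 (adjusted p = 0.992) with a replicate block, in which only arrays 1 and 2 of each group enter this comparison, and ran from 0.23 to 0.57 with 1 array left out. The Cltrn siRNA difference in DC lost its call at a minimum of 1.5-fold (-0.44), with a replicate block (-0.55, adjusted p = 0.0615) and without DC arrays 1 and 5 labelled Hes3 siRNA (-0.39), and kept it with each single array left out (-0.53 to -0.35).

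The count of called genes among the 45 of the angiotensin and collectrin lists moved most for the siRNA comparison in DC, from 22 to 7 (quantile), 5 (cyclic loess), 8 (dim genes left out), 1 (replicate block), 0 (at least 1.5-fold) and 0 (without DC arrays 1 and 5 labelled Hes3 siRNA), and ran from 10 (without array 5 labelled Hes3 siRNA) to 24 with 1 array left out. It was 14 without DC scrambled array 3 or 4. For DC against CC with scrambled siRNA it went from 6 to 3 (replicate block) and 2 (at least 1.5-fold), and ran from 3 (without CC scrambled array 2) to 7. On arrays labelled Hes3 siRNA it went from 20 to 12 (quantile), 10 (cyclic loess), 11 (replicate block) and 4 (at least 1.5-fold), and ran from 8 to 23, with 11 and 8 without CC array 1 or 2 labelled Hes3 siRNA. For the interaction it rose from 0 to 6 without CC scrambled array 2.

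Some uncalled differences near 0 changed sign. For Ace, DC against CC on arrays labelled Hes3 siRNA was -0.018 (quantile), -0.0086 (median) and -0.055 (cyclic loess), and the siRNA difference in DC was -0.046 (cyclic loess). The Ace interaction was -0.024 (quantile), -0.015 (median), -0.061 (cyclic loess) and -0.037 (without DC arrays 1 and 5 labelled Hes3 siRNA). For Agtr2 the interaction was -0.087, -0.067, -0.13 and -0.095 in the same order, -0.050 with array weights, and -0.076 to 0.097 with 1 array left out. With 1 array left out, the siRNA difference in CC ran from -0.023 to 0.11 for Agt, -0.22 to 0.27 for Cltrn, -0.050 to 0.16 for Agtr1a and -0.0018 to 0.11 for Hnf4a. DC against CC with scrambled siRNA ran from -0.11 to 0.10 for Agtr1a and -0.11 to 0.0023 for Hnf4a. The cause of these changes was not tested.

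Replicate numbers are shared by some groups, and deviations of same-numbered arrays correlated at -0.44 to 0.54. Arrays of different number were not compared, and in groups of 2 arrays the deviations mirror each other. These values therefore cannot tell whether the numbers carry a pairing, and the main fit left the numbers out. With the replicate block, Agtr1a was 0.045 in DC against CC with scrambled siRNA, the Agt interaction was -0.044, and 620 genes were called for the siRNA comparison in DC, beside 9408 without it. The filter on dim genes removed Agtr1a and Agtr2, which gave no value there. Agtr2 kept its call in DC without 5 of the 12 single arrays, Hnf4a without 10 and Agtr1a without all 12. With 2 arrays a group in CC, small siRNA differences there were not detectable.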
